A study of Mus musculus with 44 samples.

Results

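This comparison set young adult mice fed a methionine-restricted diet against mice of the same age on the control diet, in RNA of the whole hippocampus. It used 13 of the 44 libraries of the series, chosen by their diet label and age: 7 libraries of 5M-MR and 6 of 5M-CD, each from a C57BL/6J mouse of 5 months. The labels spell the diets only as MR and CD. The title of the series speaks of methionine restriction, which MR is taken to stand for, with CD as the control diet. All mice compared share strain, age and tissue. The other 31 libraries, of mice aged 15 and 18 months on the same diet labels, entered only to estimate the spread and to ask whether the difference at 5 months differed from that at the later ages. Sex, the methionine content of the diets and the time spent on them are not given in the sources used here. No label ties a library to a cage or litter, so p-values measure the spread between these libraries. Expression was measured as FPKM, fragments scaled by transcript length and by the mapped fragments of the library, for 13218 assembled loci. Of these, 11606 had an FPKM of at least 1 in at least 6 of the 13 libraries and were tested.

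Methionine is an essential amino acid that starts nearly every protein and, as S-adenosylmethionine, donates methyl groups to DNA, histones and lipids. Cells short of an amino acid activate the kinase GCN2, which slows translation and raises the transcription factor ATF4. ATF4 switches on genes of amino acid synthesis, amino acid transport and tRNA charging. Restriction of dietary methionine is known in the liver for raising the hormone FGF21, which acts on cells that carry the co-receptor beta-klotho together with an FGF receptor. The series title links that hormone to cognitive decline with age, and the 5-month groups give the difference between the diets in the youngest mice.

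The composite DNA element TGATGNAA, where N is any base, is bound by ATF4 together with a C/EBP protein, and its presence in Asns, the asparagine synthetase gene, is the classical example of an amino acid response. To show what such a site looks like in the genes followed here, it was searched on both strands of RefSeq promoter windows (GRCm38.p6, 250 bases before to 50 after a gene's start). Of the 17 ATF4 targets tested, 16 had a window, 20 windows in all. The element was in 3 of these 20 windows, each of another gene, and in 3.97% of all 32851 windows. They are printed in the direction of the gene with the element in capitals: Asns (chr6:7693160-7693459, minus strand), Nupr1 (chr7:126625421-126625720, minus strand) and Vldlr (chr19:27216770-27217069, plus strand). The element is on the printed strand in Asns and on the opposite strand in the other two.
Asns: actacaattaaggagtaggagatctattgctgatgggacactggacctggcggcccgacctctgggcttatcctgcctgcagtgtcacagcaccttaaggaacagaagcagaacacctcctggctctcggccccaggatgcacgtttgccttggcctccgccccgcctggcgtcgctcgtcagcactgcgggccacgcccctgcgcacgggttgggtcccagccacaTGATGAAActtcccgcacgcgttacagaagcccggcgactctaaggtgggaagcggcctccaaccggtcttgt
Nupr1: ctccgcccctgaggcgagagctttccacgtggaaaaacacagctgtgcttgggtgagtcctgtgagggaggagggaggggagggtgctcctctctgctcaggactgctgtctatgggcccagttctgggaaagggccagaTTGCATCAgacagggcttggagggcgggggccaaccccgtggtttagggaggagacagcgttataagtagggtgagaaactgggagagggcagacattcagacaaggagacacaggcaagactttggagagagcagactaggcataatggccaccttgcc
Vldlr: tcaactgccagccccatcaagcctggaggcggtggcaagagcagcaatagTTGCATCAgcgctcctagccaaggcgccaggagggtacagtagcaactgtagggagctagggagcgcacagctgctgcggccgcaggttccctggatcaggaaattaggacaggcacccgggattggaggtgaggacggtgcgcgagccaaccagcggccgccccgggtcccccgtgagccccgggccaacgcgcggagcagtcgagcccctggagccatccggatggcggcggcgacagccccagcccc
The differences of these 3 genes are given with the other ATF4 targets, and a match of letters is a description, not a measured site.

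The libraries carried transcripts that mark the dentate gyrus and CA1. C1ql2 of dentate granule cells lay between 19.1 and 82.1 FPKM in 5M-CD and between 34.5 and 67.9 in 5M-MR, and Wfs1 of CA1 pyramidal cells between 11.4 and 28.6 and between 17.7 and 28.3. Prox1, also of dentate granule cells, was lower and more variable, between 2.24 and 7.71 FPKM in 5M-CD and between 0.48 and 7.78 in 5M-MR. Transthyretin (Ttr), the marker of the choroid plexus, stood at 4910 FPKM in 5M-CD 10 and at 3036, 1378 and 2728 in 5M-MR 2, 5 and 6, and between 7.72 and 110 in the others. Library 5M-CD 9 stood apart, with a median correlation of 0.867 with the other 12 libraries against 0.897 to 0.915 for theirs. The sequencing lanes were unevenly filled. Of 5M-CD, 5 libraries lay on lane 1 and 5M-CD 9 on lane 4, whereas 5M-MR had 2 libraries on lane 1 and 5 on lane 2. Among the libraries of 5 months, diet and lane can be told apart only through the 7 of lane 1. A fit with lane as a factor over all 44 libraries also drew on the later ages, and took a lane to act alike at each age. FPKM hold no read counts, so sequencing depth is unknown and counting error cannot be given.

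Some measures of whole libraries differed between the diets. Loci without a gene symbol held 5.45% ± 1.21 (SD, n = 6) of the FPKM sum in 5M-CD, from 4.21% to 7.68%, and 4.20% ± 0.617 (n = 7) in 5M-MR, from 3.3% to 4.9% (2-sided exact permutation p = 0.021, adjusted p = 0.0489 over 6 measures). The groups overlapped, and the highest value was that of 5M-CD 9. The 2 loci with mitochondrial rRNA, one of them merged with most mitochondrially encoded protein genes, held 5.85% ± 1.57 and 4.11% ± 0.779 (exact permutation p = 0.0326, adjusted p = 0.0489). The locus of the mitochondrial genes ND2 and TrnW held 2.16% ± 0.768 and 1.26% ± 0.26 (exact permutation p = 0.0233, adjusted p = 0.0489). In 5M-CD 560 ± 26.7 loci were at 0, and in 5M-MR 516 ± 35 (exact permutation p = 0.0303, adjusted p = 0.0489). All 4 differences kept their direction within lane 1 but did not pass there (exact permutation, adjusted p = 0.429 each), and all 4 lost their call when a single library was left out, whichever it was, except for 5M-CD 2 and 5M-MR 7. Their part in the gene results below was not tested beyond a fit with the share of loci without a symbol as a covariate. The FPKM sum and Ttr did not pass (exact permutation, adjusted p = 0.948 each).

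No single gene passed the test between the diets. In limma, with p adjusted by Benjamini-Hochberg, 0 of 11606 loci had an adjusted p under 0.05 (0%), and the smallest was 0.117. At an unadjusted p under 0.05 there were 556 loci (4.79%), 345 higher in 5M-MR (2.97%) and 211 lower (1.82%), and the median difference over all loci was −0.0033 on the log2(FPKM + 1) scale. The filter could be met by 6 of the 7 libraries of 5M-MR alone, but by 5M-CD alone only with all 6. Loci near 0 in 1 diet thus entered more easily when high in 5M-MR. The part of this in the counts was not tested. The count of loci past the test depended on how the libraries were weighted. With limma's array weights, which count libraries with larger residuals for less, 541 of 11606 loci passed, 312 higher and 229 lower. Of the 541, 277 had an unadjusted p under 0.05 in the fit without weights. Among them were 19 of the 20 genes named below, which the choice of these genes by p in the same libraries largely fixed. Of the 5-month libraries, 5M-CD 9 had the lowest weight. Array weights over the 13 libraries alone called 927 loci, with 15 of the 20 among them. The next counts are from fits without weights. Without 5M-CD 10 there were 3 loci, and without 5M-CD 2 or without 5M-CD 9 there were 2 each. A fit within lane 1 gave 9.

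The size of difference that these libraries could show varied with the level of a gene. The 95% interval of the difference had a median half-width of 0.49 (log2) over all loci, 0.64 for loci with a mean under 2 FPKM and 0.32 for those over 50 FPKM. For 9114 loci (78.5%) the whole interval lay within ±1 on that scale. Some transcripts were present in some libraries and nearly absent in others of the same diet, and 1324 of the loci tested were under 0.1 FPKM in at least 1 of the 13 libraries.

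The genes closest to the threshold are described next, 10 in each direction, and none of them passed. Higher in 5M-MR were Plxna1, Smad4, Hinfp, Lrsam1, Klhl3, Rapgef2, Ncapd3, Entpd5, Kif1b and Kcnab2. Lower were Tubb5, Kcnk1, Gdpd5, Ppm1m, Itga3, Scn3a, Rnf144a, Slc36a4, Mrpl57 and Clock. Within lane 1 alone 19 of the 20 had the same direction, which the choice of the genes over libraries that include those of lane 1 largely fixed. The exception was Rnf144a, at 0.001 there against −0.97 over all libraries. The differences within lane 1 were smaller by over 1.5 times for Hinfp (0.73), Ncapd3 (0.64), Scn3a (−0.68) and Clock (−0.53). They were larger by over 1.5 times for Slc36a4 (−2.28, limma adjusted p = 0.00794), Kcnk1 (−1.16) and Mrpl57 (−0.72).

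Plxna1 encodes plexin A1, a receptor through which semaphorins guide axons, and lies at chr6:89316314-89362620 on the minus strand (GENCODE M21, GRCm38). Its FPKM had a lowest, median and highest value of 1.51, 6.88 and 11.2 in 5M-CD and 10.4, 14.02 and 16.3 in 5M-MR. All 7 libraries of 5M-MR were above the mean of 5M-CD, and a single one, 5M-MR 4, lay below the highest 5M-CD library. The difference was 1.18 (SE 0.259, limma adjusted p = 0.266). Of the fits of all groups with 1 library left out, Plxna1 passed only without 5M-CD 10 or without 5M-CD 9. The differences there were 1.34 (limma adjusted p = 0.0337) and 1.36 (limma adjusted p = 0.0349), so leaving out either control library widened the difference. Smad4, the shared partner of the SMAD proteins that carry TGF-beta and BMP signals, was at 0.321, 0.496 and 4.03 FPKM in 5M-CD and at 1.98, 4.87 and 6.38 in 5M-MR. The 5M-CD libraries 8 and 10 lay within the 5M-MR range and the other 4 below it. The difference was 1.45 (SE 0.338, adjusted p = 0.322).

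Kif1b encodes a kinesin motor that carries mitochondria and synaptic vesicle precursors along axons, and 2 loci bear its symbol. At the one named it was at 0.505, 0.608 and 2.49 FPKM in 5M-CD and at 1.38, 13.6 and 19.3 in 5M-MR, a difference of 2.33 (SE 0.687, limma adjusted p = 0.922). At the second locus of Kif1b the difference was 1.94 (SE 0.798, adjusted p = 0.935). At the first, the only 5M-CD library inside the 5M-MR range was 5M-CD 9, and at both all 7 libraries of 5M-MR were above the control mean. Rapgef2, an exchange factor that activates the small GTPase Rap1, was at 0.947, 3.41 and 10.7 FPKM in 5M-CD and at 7.5, 9.43 and 11.2 in 5M-MR, and 5M-CD 2 was the one control library above the lowest of 5M-MR. The difference was 1.22 (SE 0.333).

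Kcnab2, which encodes an auxiliary beta subunit of Shaker-type potassium channels, was the most abundant of the 20 and separated the diets fully. Its gene lies at chr4:152390742-152477871. It was at 83.9, 96 and 133 FPKM in 5M-CD and at 140, 151 and 192 in 5M-MR. Every library of 5M-MR was above every library of 5M-CD, with 5M-CD 9 the nearest control library. The difference was 0.67 (SE 0.197, adjusted p = 0.922 in limma), and 0.82 within lane 1. Entpd5, a nucleotidase of the endoplasmic reticulum that helps glycoproteins fold, also separated the groups, at 0.0794, 0.29 and 2.15 FPKM in 5M-CD and 2.67, 3.51 and 3.93 in 5M-MR (1.39, SE 0.405, adjusted p = 0.922). The 5M-MR libraries of Entpd5 met the filter by themselves, so its p is given as a description only. In both genes 5M-CD 9 was the control library nearest to 5M-MR, so leaving it out widens their difference. In a limma fit chosen after seeing the data, of the remaining 12 libraries alone, Kcnab2 (adjusted p = 0.049) and Entpd5 (adjusted p = 0.049) passed. Neither passed when 5M-CD 9 was left out of the fit of all groups.

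The other 4 of the higher genes were low in most control libraries. Hinfp, a zinc finger factor of histone H4 genes, was at 0.000213, 0.139 and 1.14 FPKM in 5M-CD and 0.434, 1.91 and 4.83 in 5M-MR (1.33, SE 0.312, limma adjusted p = 0.322). Lrsam1, a ubiquitin ligase, was at 0.37, 1.35 and 4.95 FPKM and 3.93, 4.5 and 5.08 (0.97), and Klhl3, a substrate adaptor of a ubiquitin ligase, at 0.248, 0.572 and 3.0 FPKM and 1.67, 3.51 and 4.25 (1.09). In each of the 3 genes 1 or 2 control libraries reached the level of 5M-MR. Ncapd3, a condensin II subunit, was listed at 0 in 5 of 6 libraries of 5M-CD and at 4.68 FPKM in 5M-CD 2. In 5M-MR its lowest, median and highest values were 0.05, 3.08 and 4.58, with 5M-MR 2 and 7 near the bottom. Hinfp and Ncapd3 met the filter mainly through 5M-MR, the group where they were high. So did Klhl3, Smad4 and the named locus of Kif1b. Their lowest values in 5M-MR were 1.67, 1.98 and 1.38 FPKM, against medians of 0.572, 0.496 and 0.608 in 5M-CD. The p of these genes is given as a description only.

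**Figure D1:**
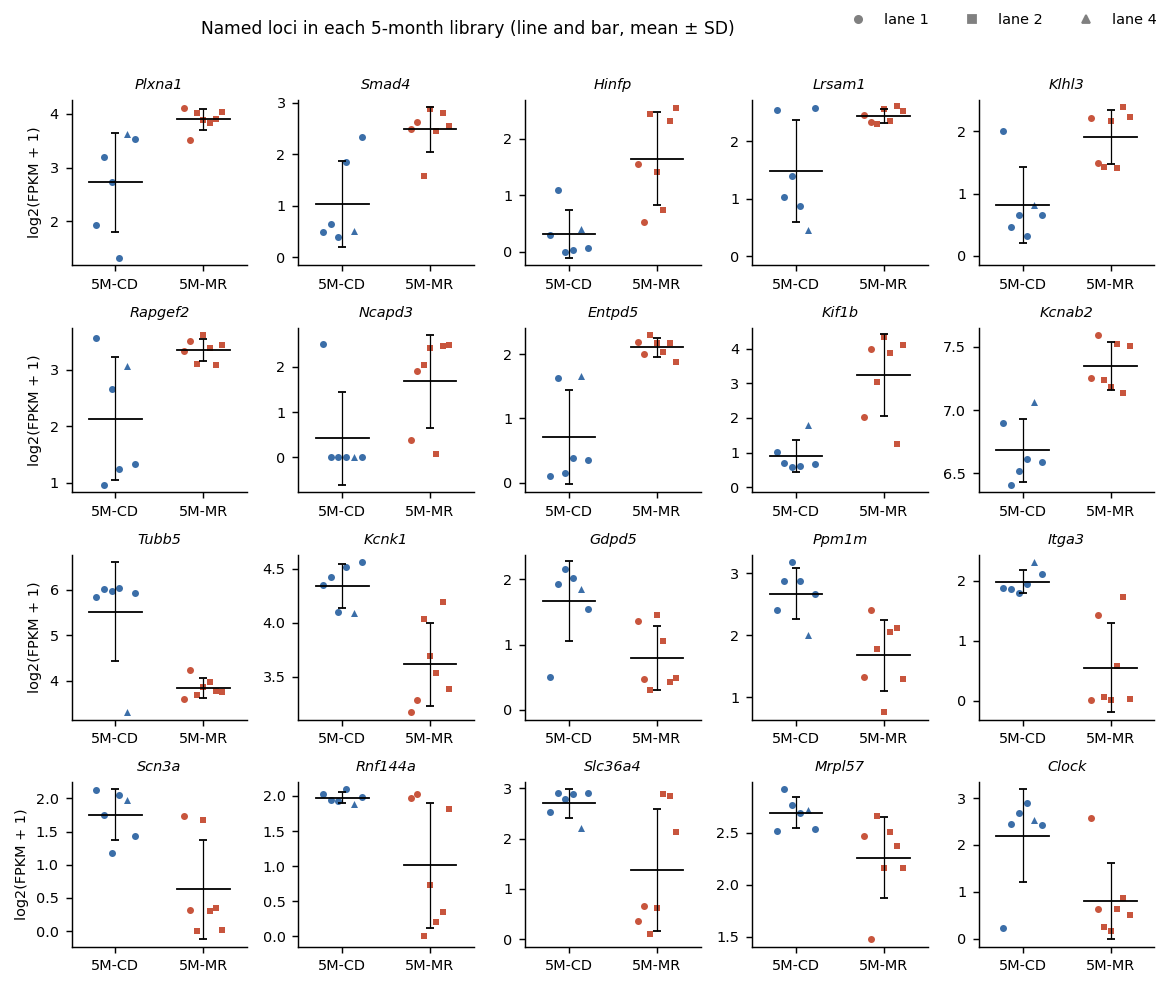
The 20 loci closest to the threshold are drawn in each 5-month library as log2(FPKM + 1), with 5M-CD in blue and 5M-MR in red; marker shapes give the lane, and the line and bar give the mean and SD of a group. Kcnab2, Entpd5 and Itga3 show no overlap between the groups, and in Tubb5 a single library of 5M-CD lies with 5M-MR.

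Among the lower genes, Tubb5, a beta-tubulin of neurons and dividing cells, had the smallest p. It is uncertain as a gene because 3 loci bear the symbol. At the locus concerned it was at 8.91, 60.9 and 64.9 FPKM in 5M-CD and at 11.04, 12.7 and 17.7 in 5M-MR. The 5 control libraries of lane 1 lay between 56.8 and 64.9, and 5M-CD 9, on lane 4, lay below all of 5M-MR. The difference was −1.69 (SE 0.336, limma adjusted p = 0.117), and the adjusted p was 2.99e-05 without 5M-CD 9. Within lane 1, which holds 5 libraries of 5M-CD and 2 of 5M-MR, it was −2.06 (adjusted p = 0.0071). At the other two Tubb5 loci the differences were 0.09 (SE 0.119) and −0.53 (SE 0.681). At later ages the same locus was low, with medians of 8.96 FPKM in 15M-CD, 8.23 in 15M-MR, 9.07 in 18M-CD and 11.3 in 18M-MR, and the highest value of 18M-MR was 56.2. The high level at this locus was thus that of 5 of 6 libraries of 5M-CD, and in the later groups a value above all of 5M-MR was seen only in 18M-MR.

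Kcnk1, the gene of the potassium channel TWIK1, was lower in all 7 libraries of 5M-MR than the mean of 5M-CD. It was at 16.1, 19.9 and 22.6 FPKM in 5M-CD and at 8.03, 10.6 and 17.3 in 5M-MR, with 5M-MR 8 the one library above the lowest control. The difference was −0.72 (SE 0.192, limma adjusted p = 0.811). It passed with lane as a factor (−1.15, adjusted p = 0.0412) and with the share of loci without a symbol as a covariate (−0.89, adjusted p = 0.0115). Itga3, the integrin alpha 3 subunit that binds laminins, separated the groups, at 2.49, 2.78 and 3.97 FPKM in 5M-CD and 0.0039, 0.0415 and 2.34 in 5M-MR. In 4 of 7 libraries of 5M-MR it was under 0.1 FPKM. It met the filter mainly through 5M-CD, where it was high, so its p is given as a description only. For loci near 0 in part of the libraries, such as Itga3, Ncapd3 and Lhx6, FPKM alone cannot tell a low level from reads that were assigned to another assembled transcript. The difference of Itga3 was −1.44 (SE 0.423, adjusted p = 0.922).

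The remaining lower genes were of low level and overlapped between the diets. Clock, which encodes the transcription factor that pairs with BMAL1 in the circadian oscillator, was at 0.163, 4.6 and 6.38 FPKM in 5M-CD and at 0.123, 0.541 and 4.94 in 5M-MR (−1.40, SE 0.465, limma adjusted p = 0.935). One library of each diet went against the rest, 5M-CD 2 being low and 5M-MR 2 high. Scn3a, a voltage-gated sodium channel best known from the immature brain, was at 1.25, 2.65 and 3.38 FPKM and 0.00045, 0.243 and 2.33 (−1.13). Slc36a4, an amino acid transporter for proline and tryptophan, was at 3.61, 6.13 and 6.48 FPKM and 0.0697, 0.579 and 6.42 (−1.32), with 5 of 7 libraries of 5M-MR below the control mean. Gdpd5 (−0.87), the phosphatase gene Ppm1m (−0.99), the ubiquitin ligase gene Rnf144a (−0.97) and the mitochondrial ribosomal gene Mrpl57 (−0.44) made up the rest. Clock, Scn3a, Slc36a4, Gdpd5 and Rnf144a had a 5M-MR median under 1 FPKM and met the filter mainly through 5M-CD. The p of these genes is given as a description only.

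Over all loci, few separated the diets without overlap. Each library of 5M-MR was above each of 5M-CD at 22 loci (0.19%) and below at 9 (0.0775%), and 14 and 6 of these had an unadjusted p under 0.05. The uneven filter described above applies to these counts too. Of the loci beyond the naming rule, the following were picked after their values were seen, and none passed the test. Clu, which encodes clusterin, an extracellular chaperone made by astrocytes, was at 262, 320 and 373 FPKM in 5M-CD and 383, 422 and 500.0 in 5M-MR (0.40, SE 0.161). Apoe, the main lipid carrier of the brain and also an astrocyte product, was at 611, 664 and 681 FPKM and 701, 770.2 and 1013 (0.31, SE 0.156). Fads2, the desaturase of polyunsaturated fatty acids, was at 19.9, 28.1 and 30.03 FPKM and 31.7, 34.7 and 42.4 (0.43, SE 0.144). In these 3 genes the groups lay next to each other, and the gap between them was small beside the range within a group.

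Among the others that did not overlap, Mknk2, a kinase that phosphorylates the cap-binding protein eIF4E, was at 7.24, 9.11 and 11.1 FPKM in 5M-CD and 11.3, 12.2 and 14.9 in 5M-MR (0.40, SE 0.128). Itpr1, a calcium release channel of the endoplasmic reticulum, was at 10.9, 12.4 and 13.5 FPKM and 14.3, 15.9 and 16.4 (0.31, SE 0.146). Ckap4, a protein that anchors that membrane to microtubules, was at 6.43, 7.59 and 8.35 FPKM and 8.52, 9.01 and 12.4 (0.31, SE 0.119). Of the loci lower without overlap, 3 have no symbol. Dnaic1, a dynein chain of motile cilia, was at 2.38, 2.84 and 3.51 FPKM in 5M-CD and 1.37, 1.66 and 2.34 in 5M-MR (−0.48, SE 0.186). Dbt, a subunit of the complex that degrades branched-chain amino acids, was at 3.32, 3.81 and 4.75 FPKM and 0.725, 3.0 and 3.26 (−0.52, SE 0.499).

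The receptors through which FGF21 could act were expressed, and none passed the test without array weights. Fgfr1, the receptor that pairs with beta-klotho in most tissues, lies at chr8:25513654-25575718. It was at 5.22, 7.98 and 11.9 FPKM in 5M-CD and at 8.8, 10.3 and 11.96 in 5M-MR. All 7 libraries of 5M-MR were above the control mean, but 5M-CD 2, at 11.86 FPKM, lay within their range and the groups overlapped. The difference was 0.34 (SE 0.164, unadjusted p = 0.0477, limma adjusted p = 0.935). With array weights Fgfr1 passed, at 0.46 (adjusted p = 0.0317) and, over the 13 libraries, at 0.47 (adjusted p = 0.0375), whereas the adjusted p was between 0.461 and 0.998 under all other alternatives run. Fgfr2 was at 1.72, 2.49 and 3.36 FPKM and 1.17, 2.07 and 3.0 (−0.24, SE 0.208, adjusted p = 0.935). Fgfr3, the receptor most typical of astrocytes, was at 7.74, 11.9 and 13.9 FPKM and 9.72, 10.99 and 17.6 (0.09, SE 0.171, adjusted p = 0.952), and its sign turned within lane 1 (−0.16). Fgf21 itself, Fgfr4 and Klb, the gene of beta-klotho, were not among the loci tested.

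In the wider list of FGF ligands, receptors and signalling genes, 15 of 25 members were tested and 0 passed, while array weights called 2 higher and 1 lower. Over all 11606 loci, the background for this and each later list, array weights called 312 higher and 229 lower. At an unadjusted p under 0.05, 1 member of the FGF list was higher and 1 lower, beside 2.97% and 1.82% of all loci. The median difference was 0.14, beside −0.0033 over all loci. Fgf12, an intracellular FGF homologue that binds sodium channels, was the lower one, at 4.31, 5.89 and 10.3 FPKM in 5M-CD and 2.68, 4.38 and 6.07 in 5M-MR (−0.49, SE 0.242). Etv4, Etv5, Dusp6 and Egr1, transcripts induced downstream of FGF receptors, all had unadjusted p above 0.05. The median of the list was −0.0057 within lane 1 and −0.0046 with the share of loci without a symbol as a covariate.

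The ATF4 targets also held no gene past the test. Of 30 members 17 were tested, 12 of them above 0 and 5 below, with a median of 0.06. The median was −0.00044 within lane 1, −0.04 with the share of loci without a symbol as a covariate and −0.02 with array weights, which called 1 higher and 1 lower. Averaged over the centred members of each library, the list ran from −0.147 to 0.0902 in 5M-CD and from −0.136 to 0.144 in 5M-MR, nearly the same range, and 3 of 7 libraries of 5M-MR were above the control mean. Asns, whose promoter is printed above, was at 23.3, 34.5 and 36.5 FPKM in 5M-CD and 30.9, 34.6 and 46.7 in 5M-MR, a difference of 0.13 (SE 0.152, limma adjusted p = 0.936). Its 95% interval ran from −0.18 to 0.44, and its sign turned with array weights (−0.03) and with the share of loci without a symbol as a covariate (−0.04). Nupr1, a stress-induced nuclear protein, was at 2.51, 5.64 and 5.87 FPKM and 1.97, 3.44 and 4.34 (−0.52, SE 0.236, unadjusted p = 0.0343), and all 7 libraries of 5M-MR lay below the control mean. Vldlr, the receptor of very low density lipoprotein, was at 0, 4.32 and 5.66 FPKM and 0, 1.23 and 5.21 (−0.70, SE 0.508). Of the 3 genes with the element in their promoter window, 1 had a difference above 0 and 2 below.

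Slc3a2, which encodes the heavy chain that brings several amino acid transporters to the membrane, was the one ATF4 target higher at an unadjusted p under 0.05. It was at 9.22, 13.2 and 15.9 FPKM in 5M-CD and 13.7, 14.9 and 20.8 in 5M-MR (0.31, SE 0.149, unadjusted p = 0.0456, limma adjusted p = 0.935). Of the enzymes of serine synthesis, Phgdh differed by 0.19 (SE 0.119) and Psat1 by 0.01 (SE 0.166), and neither passed. Ddit3, the stress factor CHOP, differed by −0.07 (SE 0.13). Trib3, Chac1 and Sesn2, also targets of ATF4, were not among the loci tested.

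The aminoacyl-tRNA synthetases, the enzymes that load tRNAs and several of which ATF4 induces, were mostly above 0. Of 15 tested 13 were above 0 (86.7%, against 49.4% of all loci), the median was 0.17, and 0 passed the test, with or without array weights. The mean of the centred members ranged from −0.142 to 2.44e-05 in 5M-CD and from −0.0254 to 0.218 in 5M-MR, so that the groups overlapped narrowly and all 7 libraries of 5M-MR were above the control mean. Kars, the lysyl-tRNA synthetase, was at 22.1, 24.2 and 26.4 FPKM and 24.8, 28.5 and 39.7 (0.25, SE 0.114, unadjusted p = 0.0331). Hars (0.20), Aars (0.18) and Iars (0.19) each had 6 of 7 libraries above the control mean. The median of the list was 0.09 with the share of loci without a symbol as a covariate.

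**Figure D2:**
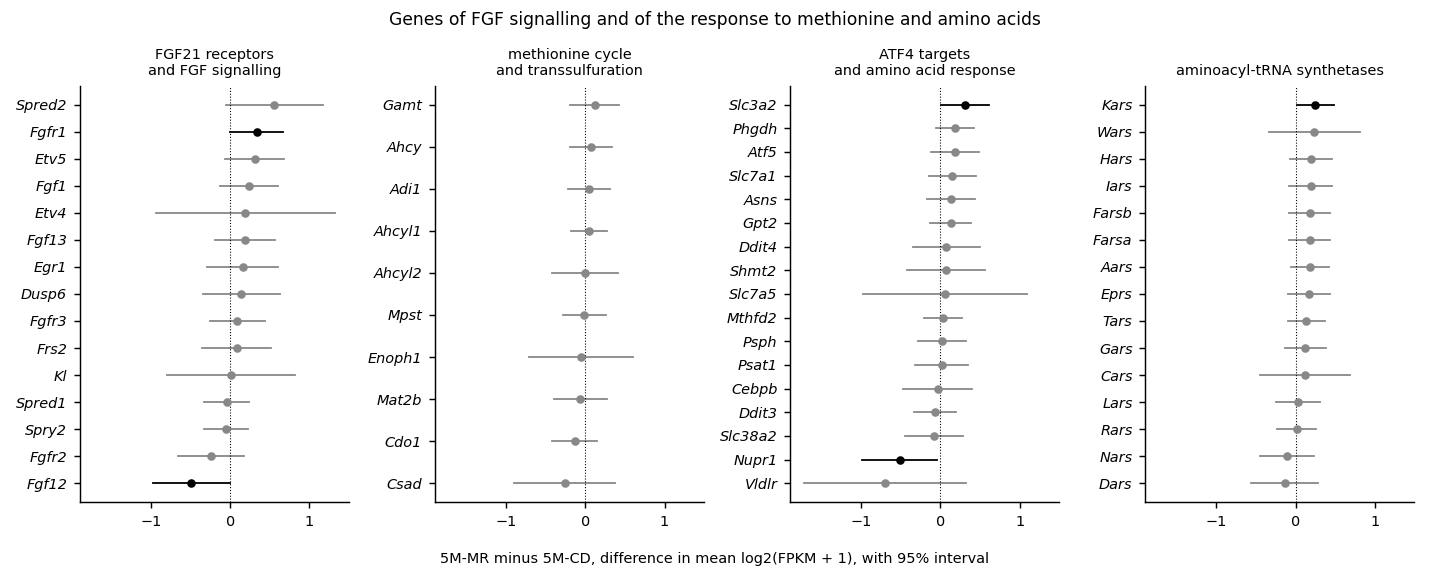
Points give the difference in mean log2(FPKM + 1) between 5M-MR and 5M-CD for each gene tested of 4 lists, with its 95% interval from limma; black marks an unadjusted p under 0.05. In the aminoacyl-tRNA synthetases 13 of 15 points lie to the right of 0, whereas the methionine cycle has 4 of 10, and nearly all intervals cross 0.

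Genes that handle methionine itself differed little. Of the methionine cycle and transsulfuration list, 10 of 24 members were tested, 4 above 0 and 6 below, with a median of −0.01 and 0 at an unadjusted p under 0.05. Ahcy, which splits S-adenosylhomocysteine, was at 5.7, 8.1 and 9.3 FPKM in 5M-CD and 6.53, 7.85 and 10.7 in 5M-MR, a difference of 0.07 (SE 0.13) with a 95% interval from −0.19 to 0.34. Mat2a makes S-adenosylmethionine, and 1 of the 2 loci with its symbol was tested, so its value is uncertain. It was at 9.03, 12.8 and 17.0 FPKM and 11.3, 16.1 and 19.5 (0.26, SE 0.19), and its sign turned within lane 1 (−0.17). Mtr, the methionine synthase gene, lies in a locus merged with Gm10336 (0.20, SE 0.229), and Cbs did not reach the minimum level and was not tested.

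Of the folate cycle and serine synthesis list 9 members were tested, 7 of them above 0, with a median of 0.04 that was −0.00044 within lane 1 and −0.0042 with the covariate. Polyamines are made from S-adenosylmethionine, and of 7 genes tested Sms, the spermine synthase on the X chromosome, had an unadjusted p of 0.00161. It was at 2.49, 3.79 and 19.4 FPKM in 5M-CD and at 10.6, 17.1 and 20.1 in 5M-MR. The control libraries 4 and 6 lay within the 5M-MR range and the other 4 below it (1.36, SE 0.403, limma adjusted p = 0.922). Odc1, which makes the first polyamine, differed by 0.20 (SE 0.112). Of the enzymes that use S-adenosylmethionine to methylate DNA and histones, 18 were tested with a median of 0.16 and 3 higher with array weights, and Ezh1, a methyltransferase of histone H3, was at 0.734, 1.82 and 7.71 FPKM and 1.27, 10.7 and 12.5 (1.15, SE 0.568, unadjusted p = 0.049).

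No gene of growth control or of protein folding passed the test. In the list of mTORC1 and autophagy 18 of 24 were above 0, with a median of 0.08, which was −0.03 with the share of loci without a symbol as a covariate. Its members Ulk2, an autophagy kinase, and Eif4ebp2, the translation repressor most abundant in brain, had unadjusted p under 0.05. Ulk2 was at 1.22, 1.85 and 4.3 FPKM in 5M-CD and 2.22, 4.37 and 5.87 in 5M-MR (0.68, SE 0.234), and Eif4ebp2 was at 6.49, 7.2 and 11.8 FPKM and 8.67, 11.3 and 12.4 (0.39, SE 0.153). Of 16 chaperones and stress genes of the endoplasmic reticulum 14 were above 0, with a median of 0.11, which was −0.0156 with the same covariate. Array weights called 2 higher in each of these lists. Calr, the calcium-binding chaperone calreticulin, was at 137, 148 and 175 FPKM and 152, 202 and 232 (0.37, SE 0.125, unadjusted p = 0.00548), and 5M-MR 6 and 7 lay below the highest control library. Hspa5, the main chaperone of that compartment, differed by 0.13 (SE 0.215). Of 13 heat shock and cold shock genes 7 were above 0, with a median of 0.02, which was −0.09 with the covariate and −0.07 with array weights. The cytosolic chaperone gene Hsp90ab1 of this list was at 462, 482 and 622 FPKM and 531, 586 and 796 (0.26, SE 0.112, unadjusted p = 0.027).

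Of 27 genes of synaptic vesicles and the postsynaptic density 21 were above 0 (77.8%), with a median of 0.18 and 0 past the test, while array weights called 2 higher. At an unadjusted p under 0.05, 1 was higher and 1 lower. The higher one, Vamp2, the vesicle protein of the release machinery, was at 329.5, 351 and 508 FPKM in 5M-CD and 405, 485 and 548 in 5M-MR (0.35, SE 0.172, unadjusted p = 0.0463). Of 66 cytosolic ribosomal proteins 21 were above 0 (31.8%), with a median of −0.04, and of 67 nuclear-encoded subunits of oxidative phosphorylation 20 were above 0 (29.9%), with a median of −0.07. Both medians turned within lane 1, to 0.11 for the ribosomal and 0.10 for the oxidative phosphorylation genes. They were −0.16 and −0.18 with array weights, which called 4 lower in each list, beside 229 lower of all 11606 loci. Their one member at an unadjusted p under 0.05, Ndufv1 of complex I, was higher, at 24.03, 27.6 and 30.4 FPKM and 28.7, 33.4 and 41.8 (0.27, SE 0.112). Rpl29 of the ribosomal list was at 0.784, 1.33 and 3.22 FPKM in 5M-CD and 0.657, 1.85 and 45.1 in 5M-MR. The median of 5M-MR lay within the control range, and Rpl29 did not pass in the main fit. It passed as higher with lane as a factor (3.98, limma adjusted p = 0.00425) and within lane 1 (4.16, limma adjusted p = 0.000814). On lane 1 the only libraries of 5M-MR are 5M-MR 2 and 4, so the call there rests on these 2.

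Transcript length varied with these lists. Over 8394 loci with a length in the annotation the difference correlated with log2 transcript length at 0.17, and its median was −0.10 for transcripts up to 1000 bases and 0.08 for those over 4000 bases. The longest annotated transcript had a median of 1072 bases in the ribosomal protein genes, 1232 in the oxidative phosphorylation genes and 5568 in the synaptic genes. The part of length in these lists was not tested.

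Of 14 glutamate receptor genes 6 were above 0 (median −0.05, and 0.08 within lane 1), and array weights called 3 higher. The obligatory NMDA receptor subunit Grin1 (8.06, 13.3 and 25.2 FPKM against 17.9, 20.4 and 23.03) and the AMPA receptor subunit Gria1 (12.8, 17.0 and 34.1 against 23.02, 25.3 and 28.9) were higher at unadjusted p of 0.038 and 0.0384. In both genes 1 control library lay above all of 5M-MR. Of 10 GABA-A receptor genes 3 were above 0 and 7 below, with a median of −0.24 and none at an unadjusted p under 0.05. The median was −0.06 within lane 1 and −0.39 with array weights, which called none. In the list of voltage-gated potassium channels, where array weights called 3 higher of 17, Kcnc1, the fast-spiking channel Kv3.1, was at 3.23, 4.55 and 7.72 FPKM and 5.16, 7.04 and 9.56 (0.49, SE 0.197, unadjusted p = 0.0166), beside Kcnab2. Kcnip4, which modulates A-type currents, was lower, at 7.33, 9.16 and 10.8 FPKM and 2.48, 6.02 and 7.63 (−0.82, SE 0.371, unadjusted p = 0.0336).

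Genes that follow neuronal activity and the time of day held no call without array weights. Array weights called 1 lower of 20 genes induced by neuronal activity and 1 lower of the 13 clock genes. Fos was at 4.94, 8.65 and 10.7 FPKM in 5M-CD and 4.75, 7.37 and 8.48 in 5M-MR (−0.24, SE 0.154, limma adjusted p = 0.935), and Arc at 30.8, 47.4 and 66.2 and 24.1, 49.0 and 73.0 (−0.08, SE 0.241). Of 13 clock genes 9 were above 0, with a median of 0.16, which was 0.02 with the share of loci without a symbol as a covariate. Arntl, the gene of BMAL1, was at 0.19, 2.2 and 4.35 FPKM and 2.27, 3.18 and 3.68 (0.60, SE 0.268, unadjusted p = 0.0308), and Nr1d1, the repressor that BMAL1 and CLOCK drive, at 9.19, 10.1 and 12.9 and 11.1, 17.2 and 21.5 (0.64, SE 0.328). The time of day of collection is not given in the sources used here.

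**Figure D3:**
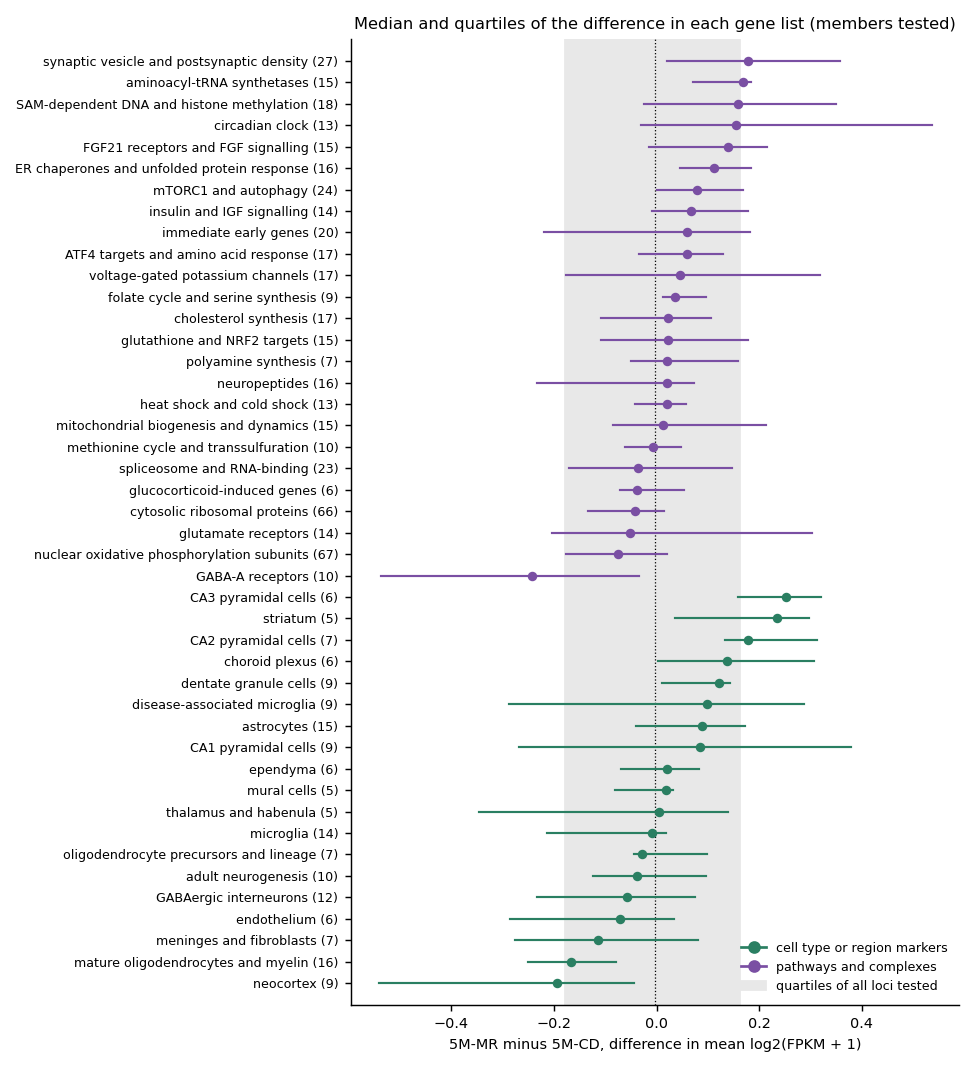
Points give the median and lines the quartiles of the difference in mean log2(FPKM + 1) between 5M-MR and 5M-CD over the members tested of each list with 5 or more, with the number tested in brackets; the grey band gives the quartiles of all 11606 loci and the dotted line their median. The GABA-A receptors (−0.24) and CA3 markers (0.25) have the lowest and highest medians, and within lane 1 these were −0.06 and 0.06.

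Markers of the hippocampal cell types differed within their spread, and in whole tissue fewer cells of a type and less RNA per cell cannot be told apart. Of the dentate granule markers 7 of 9 were above 0 (median 0.12), of CA1 6 of 9 (0.09), of CA3 5 of 6 (0.25) and of CA2 6 of 7 (0.18). Without array weights 0 passed in any of them, and array weights called 1 higher in CA3 and 1 higher in CA2. With the share of loci without a symbol as a covariate the medians were −0.11 for the dentate, −0.0011 for CA1, 0.15 for CA3 and 0.0082 for CA2, and within lane 1 that of CA3 was 0.06. Fibcd1, a CA1 marker, was at 19.0, 24.2 and 29.9 FPKM in 5M-CD and 25.6, 32.5 and 46.5 in 5M-MR (0.47, SE 0.22, unadjusted p = 0.0369). Cacng5, an AMPA receptor auxiliary subunit of CA2, was under 0.1 FPKM in 5 of 6 libraries of 5M-CD and at 4.24 in 5M-CD 2, and lay between 1.65 and 5.11 in 5M-MR (1.45, SE 0.435, unadjusted p = 0.00181). It met the filter through the libraries of 5M-MR, where it was high, so its p is given as a description only. Summed over the CA3 list, FPKM were between 94.7 and 299 in 5M-CD and between 202 and 306 in 5M-MR, so that the ranges overlapped and the lowest libraries were of 5M-CD.

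Glial and interneuron markers lay in both directions, without a call in the fit without array weights. Array weights called 1 higher and 1 lower among the astrocyte markers. Myelin and mature oligodendrocyte genes were below 0 in 14 of 16 cases, with a median of −0.17, 0 of them at an unadjusted p under 0.05. Their summed FPKM ran from 555 to 1187 in 5M-CD and from 460.1 to 1142 in 5M-MR, nearly the same range, and Mbp differed by −0.09 (SE 0.276). Of 15 astrocyte markers 10 were above 0 (median 0.09, −0.06 within lane 1 and −0.07 with array weights), with Atp1b2, a sodium pump subunit, at 0.43 (SE 0.214) and S100b at −0.34 (SE 0.166), in opposite directions. Of 14 microglial genes 6 were above 0, and the fractalkine receptor Cx3cr1 was at 5.42, 5.89 and 7.21 FPKM and 0.678, 2.53 and 5.5 (−1.05, SE 0.525, unadjusted p = 0.0511). Lhx6, a transcription factor of interneurons, was at 1.65, 2.83 and 3.13 FPKM in 5M-CD and between 0.00946 and 0.133 in the 5 libraries of 5M-MR on lane 2 (−1.20, SE 0.408, unadjusted p = 0.00525). In 5M-MR 2 and 4, on lane 1 with most controls, Lhx6 was at 3.38 and 3.63 FPKM. Lhx6 met the filter mainly through 5M-CD, so its p is given as a description only. No library of 5M-CD lay on lane 2, so the libraries of 5 months cannot tell lane and diet apart for the 5 low ones. The interneuron genes Sst (−0.22, SE 0.224), Pvalb (−0.28, SE 0.232) and Gad1 (−0.03, SE 0.218) had differences whose 95% intervals included 0. Choroid plexus genes, whose summed FPKM ranged from 52.3 to 5121 in 5M-CD and from 13.1 to 3144 in 5M-MR, overlapped between the diets.

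The last question was whether the difference at 5 months was that of later ages. Among the 15-month libraries (8 of 15M-MR and 8 of 15M-CD) and among those of 18 months (7 of 18M-MR and 8 of 18M-CD), limma also called 0 loci between the diets, with 252 (2.17%) and 562 (4.84%) at an unadjusted p under 0.05. A test of the difference itself found 0 loci with another difference at 5 than at 15 months (392 at an unadjusted p under 0.05, 3.38%). Between 5 and 18 months it found 1 (0.00862%), with 847 at an unadjusted p under 0.05 (7.3%). The 1 locus was that of Tubb5 described above, at −1.69 at 5 months and 0.80 at 18 months, a difference of −2.48 (limma adjusted p = 0.0318). Leaving out any one library of 5 months except 5M-CD 9 and 5M-MR 4 ended that call (0 loci), and array weights gave 68 loci.

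The correlation of the 5-month differences across 11606 loci, given as a description, was −0.08 with those at 15 months and −0.22 with those at 18 months, which share no library with them. Chn1, a Rac GTPase-activating protein of neurons, had one of the smallest p for a change between 5 and 15 months. It was at 37.9, 95.6 and 161 FPKM in 5M-CD and 109, 147 and 202 in 5M-MR, and its difference was 0.79 (SE 0.401) at 5 months and −1.13 (SE 0.36) at 15 months. The merged locus Smchd1/LOC100534390 followed, at 1.29 (SE 0.522) and −1.19 (SE 0.469), and neither passed. Of the 20 genes named for 5 months, Scn3a alone had a 95% interval that excluded 0 at 15 months, in the same direction (−0.87, SE 0.311), and Tubb5 alone at 18 months, in the opposite one (0.80). Kif1b was at 2.33 at 5 months, −0.81 at 15 and −0.68 at 18 months, Kcnab2 at 0.67, 0.15 and −0.25, and Plxna1 at 1.18, 0.03 and −0.25. These genes were named for their p at 5 months, so that a smaller difference at another age needs no change with age.

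**Figure D4:**
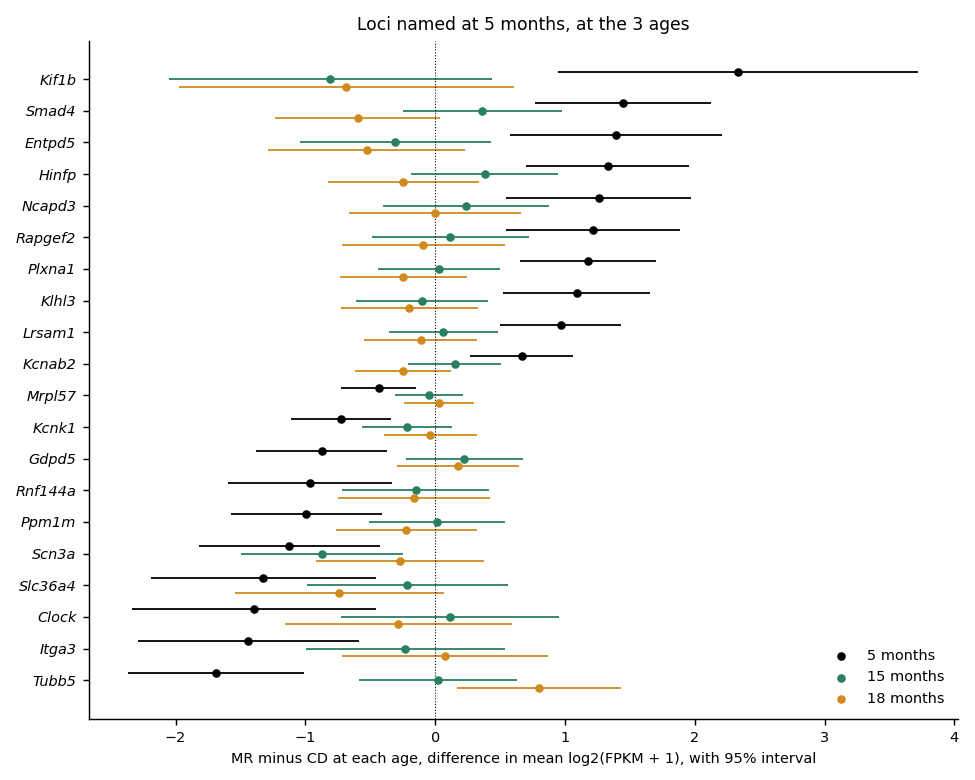
For the 20 loci named at 5 months, points give the difference in mean log2(FPKM + 1) between MR and CD with its 95% interval from limma at 5, 15 and 18 months. The intervals at 5 months exclude 0 because the loci were chosen by that p, and most of those at 15 and 18 months include it.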

How the data were processed

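The hippocampus of C57BL/6J mice was profiled by RNA sequencing, 1 library per mouse. The authors deposited 1 table of FPKM for 13218 assembled loci in 44 libraries. Per the submitters' processing notes, Trimmomatic 0.38, HISAT2 (version not given in the sources used here), StringTie 1.3.4d and the build GRCm38.p6 were used. The table holds no counts, so depth is unknown and no count model was used. All columns were matched to samples by their titles (0 left unmatched). Loci merged from several genes were kept as such.

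Tests covered loci that reached 1 FPKM in 6 or more of the 13 libraries of 5 months, on log2(FPKM + 1), a scale that understates changes of low genes. limma 3.58.1 (R 4.3.3) fitted means of 6 groups over 44 libraries (38 residual degrees of freedom, trended prior), with Benjamini-Hochberg adjustment over 11606 loci. Library measures were compared by 2-sided exact permutation over 1716 splits, where the smallest p possible is 0.00117. SciPy 1.17.1, pandas 2.3.3, NumPy 2.4.6 and matplotlib 3.10.9 under Python 3.11.15 did the rest, and the fit was tested on simulated data. Gene positions are those of GENCODE M21 and promoter windows those of RefSeq, both on GRCm38.

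Named were the 10 loci with a symbol and the smallest p in each direction, the 3 with the smallest p for each change with age, up to 4 members with the smallest p of each list, set FGF21, methionine and ATF4 genes, and defining markers. Arc, Dusp6, Egr1, Etv4 and Hspa5 and the genes without overlap were added after their values were seen. The members and lists were chosen with earlier results of these data known. Alternatives were another pseudocount, filter, scaling, set of libraries or covariate, lane as a factor, lane 1 alone, array weights and each library left out. Of these, 3 were chosen after seeing the data: leaving out 4 libraries with Ttr above 1000 FPKM, array weights over 13 libraries, and the 5-month libraries without 5M-CD 9.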

Additional observations from a re-analysis of the deposited data

Results flagged for a closer look

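In 13 of 68 groups of values tested, 1 library lay far from the rest of its group. The rule used flags about 1 in 20 groups of independent, normally distributed values. Many of these groups are loci chosen by p in the same libraries, some of them near 0, so that rate is not a background for this count. All values are FPKM. In 5M-CD 9, the library on lane 4, Kif1b was at 2.491 (others 0.505 to 1.005), Asns at 23.34 (34.16 to 36.55) and Tubb5 at 8.907 (56.77 to 64.92). In 5M-CD 2, Clock was at 0.1632 (4.379 to 6.38), Gdpd5 at 0.4119 (1.924 to 3.491), Ncapd3 at 4.675 (0 in all others) and Klhl3 at 3.0 (0.2479 to 0.755). Hinfp was at 1.139 in 5M-CD 4 (0.000213 to 0.315), and Ttr at 4910 in 5M-CD 10 (31.77 to 92).

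Among the libraries of 5M-MR, Clock was at 4.936 in 5M-MR 2 (0.1232 to 0.8246), Mrpl57 at 1.779 in 5M-MR 4 (3.461 to 5.309), Smad4 at 1.981 in 5M-MR 5 (4.514 to 6.377) and Fgfr3 at 17.56 in 5M-MR 8 (9.718 to 12.32). The locus of Tubb5 was singled out because its difference between the diets was lower at 5 than at 18 months, by −2.48 (limma adjusted p = 0.0318). The causes of these values were not tested.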

How the results depend on the processing

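The count of loci past the threshold between the diets at 5 months was 0. It was 3 with quantile normalization or with lane as a factor, 1 with upper quartile scaling, 9 within lane 1, 2 with the share of loci without a symbol as a covariate, 541 with array weights, 927 with array weights over 13 libraries and 4 without 5M-CD 9 in a fit of 12 libraries. Leaving out single libraries gave 0 to 3. For the change against 15 months it was 1 with lane as a factor and 2 with array weights, and 0 to 1 with single libraries left out. Against 18 months it was 3, 68 and 0 to 1. The sample numbers do not pair the libraries (correlations of same-numbered deviations from −0.242 to 0.121, and no control library correlated best with its own number), and a fit with the number as a replicate block called 2.

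Of the fits for 28 named genes under 28 alternatives, 684 kept direction and side of the threshold, 56 passed and 29 reversed. Within lane 1 Rnf144a was at 0.000969, Fgfr3 at −0.16, Mat2a at −0.167 and Psat1 at −0.255. With lane as a factor Fgfr3 was at −0.00114 and Psat1 at −0.209. With array weights Fgfr3 was at −0.0666, Asns at −0.0265, Psat1 at −0.143 and Ahcy at −0.0808, and over 13 libraries at −0.0936, −0.0484, −0.172 and −0.104. With the covariate Asns was at −0.0396, Psat1 at −0.0899, Ahcy at −0.0504 and Ddit3 at 0.000547. With the replicate block Psat1 was at −0.123 and Ahcy at −0.077. Psat1 was at −0.0272 with quantile normalization and −0.0308 with upper quartile scaling. In the 12 libraries without 5M-CD 9, Psat1 was at −0.109 and Ahcy at −0.0036. With single libraries left out, Fgfr3 ranged from −0.00173 to 0.154, Psat1 from −0.109 to 0.0744 and Ahcy from −0.0036 to 0.122.

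Of the library measures within lane 1, the share without a symbol differed by −0.584 percentage points, the mitochondrial rRNA loci by −1.64, the ND2 locus by −1.09, the loci at 0 by −47.7 and the FPKM sum by 8120. With single libraries left out, these ranged from −1.5 to −0.807, −2.33 to −1.43, −1.15 to −0.752, −54.2 to −35.9 and −8270 to 400.0, and Ttr from −158 to 982 FPKM. The causes were not tested. Without read counts, the level of a gene could not be tied to depth, and loci under 2 FPKM had the widest intervals.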
